A study of Mus musculus with 18 samples.

Results

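Cells given talc with estradiol were compared directly with cells given titanium dioxide (TiO2) with estradiol, 3 arrays in each group. The 6 arrays were those described as talc and estrogen or as titanium dioxide and estrogen, out of 18 arrays in the series. All were of J774 cells, an established mouse macrophage line, in medium free of phenol red. The cells were plated in 24-well plates and received 10 µg of particles per well together with 2 µg/mL estradiol for 24 h. The comparison asks how the 2 mineral particles differ when the hormone is present in both groups. The particles were matched by mass, and their size and surface area are not given in the sources used here. The other 12 arrays were of cells given vehicle, estradiol, talc or TiO2, and 6 of these, talc and TiO2 without estradiol, gave the same particle difference on arrays that share none with the main comparison. Whether the 3 arrays of a group were separate cultures is not stated, and the p-values therefore cover the spread between these arrays alone, which can be technical. Array numbers run through the groups in order, and that order and the groups cannot be told apart.

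Talc is a layered magnesium silicate and TiO2 a metal oxide widely used as a pigment, and both are taken up by macrophages, which engulf particles. Macrophages that meet an irritant particle can switch on immediate early transcription factors, NF-kB targets, chemokines and prostaglandin synthesis. Dividing macrophage lines also keep the genes of DNA replication and mitosis active, many of which are repressed when a cell leaves the cycle. Ribosome biogenesis makes the rRNA processing and assembly factors that a growing cell needs, and several small nucleolar RNAs are spliced from the introns of host genes named Snhg.

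The macrophage identity of the cells was visible on the arrays. The median level of 19 macrophage genes stood at percentile 96.8 of all genes. The pan-leukocyte phosphatase Ptprc stood at percentile 99.5, the receptor for colony stimulating factor 1, Csf1r, at 99.2, and the lysosomal glycoprotein Cd68 at 99.9. Another gene of that list, Adgre1, stood lower, at 67.9. Median levels of the marker lists of fibroblasts, epithelial cells, lymphocytes, granulocytes and endothelial cells stood at percentiles 41.7, 40.2, 26.7, 22.6 and 38.1. Of their 48 measured members 1 passed the test, the keratin Krt5, at 0.68 ± 0.17 log2 units higher with talc (SE, limma adjusted p = 0.0163). The T cell gene Cd3e stood at percentile 34.3, the epithelial gene Epcam at 30.8 and the granulocyte gene Ly6g at 16.2. Higher than these were the epithelial gene Krt8, at 57.5, and the fibroblast gene Col1a1, at 54.1. Among these lists of other cells, the summed linear levels of 2 did not overlap between the groups, and both were lower with talc. The lymphocyte markers summed to 113 to 120 with talc and estradiol and 126 to 152 with TiO2 and estradiol, and the fibroblast markers to 163 to 185 and 189 to 199. The epithelial sums overlapped, at 186 to 224 and 207 to 221, as did the granulocyte sums, at 197 to 210 and 190 to 220. The endothelial sums overlapped in a small part, at 164 to 173 and 171 to 187. The macrophage sums did not overlap either, at 24684 to 25201 and 23897 to 24650. Of all single genes, 11.5% had all talc arrays below all TiO2 arrays with estradiol, and 16.3% above. The lymphocyte and fibroblast lists are dim. All genes in the level bins of their medians, bins 3 and 5 as set out below, had median differences of -0.073 and -0.093. Whether the 2 sums differ beyond that shift was not tested, nor was the part of other cells in the results.

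Promoters of 7 genes are shown because 4 of them are among the 15 largest rises and the other 3 are among the genes of mitosis that passed with the smallest p. Each runs 5′ to 3′ along the gene from 180 bases before to 30 bases after the transcription start in RefSeq, mouse build GRCm38.p6. The motifs were sought on both strands. For Snhg15, at chr11:6528731-6528940 (minus strand), and Ptgs2, at chr1:150099851-150100060 (plus strand), capitals mark cores of the cAMP response element (TGACGT) and E-boxes (CACGTG). These 2 motifs overlap in Ptgs2, and in Snhg15 2 cores on opposite strands overlap. For Fos, at chr12:85473710-85473919 (plus strand), capitals mark the same core and the TATA box (TATAAA). For Cxcl2, at chr5:90903719-90903928 (plus strand), they mark NF-kB motifs (GGG, any 2 bases, then TTTCC).
Snhg15 promoter: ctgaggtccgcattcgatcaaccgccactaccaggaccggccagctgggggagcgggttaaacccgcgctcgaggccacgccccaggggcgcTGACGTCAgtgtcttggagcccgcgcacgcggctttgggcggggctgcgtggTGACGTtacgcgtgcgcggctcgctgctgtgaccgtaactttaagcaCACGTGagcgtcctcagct
Ptgs2 promoter: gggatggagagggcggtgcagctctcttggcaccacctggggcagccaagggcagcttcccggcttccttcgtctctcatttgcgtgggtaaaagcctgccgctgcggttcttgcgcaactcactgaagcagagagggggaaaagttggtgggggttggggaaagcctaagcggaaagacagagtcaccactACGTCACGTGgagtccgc
Fos promoter: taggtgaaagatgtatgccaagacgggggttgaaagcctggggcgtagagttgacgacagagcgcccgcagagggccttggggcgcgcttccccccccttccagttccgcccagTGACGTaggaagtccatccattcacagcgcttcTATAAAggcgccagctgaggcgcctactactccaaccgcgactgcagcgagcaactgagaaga
Cxcl2 promoter: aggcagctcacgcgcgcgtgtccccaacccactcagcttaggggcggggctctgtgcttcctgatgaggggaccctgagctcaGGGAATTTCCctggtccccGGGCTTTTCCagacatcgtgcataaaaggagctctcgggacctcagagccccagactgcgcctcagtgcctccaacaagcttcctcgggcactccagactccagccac
The Cxcl2 motifs start 97 and 78 bases upstream of the transcription start. The core in Fos starts 66 bases upstream and its TATA box 33 bases upstream. In Snhg15 the cores start 88, 86 and 36 bases upstream.

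Ccnb2, at chr9:70421525-70421734 (minus strand), Ncapd2, at chr6:125191557-125191766 (minus strand), and Spc25, at chr2:69206184-69206393 (minus strand), are genes of mitosis. Capitals mark CCAAT boxes (CCAAT) and the core of the cell cycle genes homology region, CHR (TTTGAA), a pair of elements known from promoters that are silent outside late cell cycle phases.
Ccnb2 promoter: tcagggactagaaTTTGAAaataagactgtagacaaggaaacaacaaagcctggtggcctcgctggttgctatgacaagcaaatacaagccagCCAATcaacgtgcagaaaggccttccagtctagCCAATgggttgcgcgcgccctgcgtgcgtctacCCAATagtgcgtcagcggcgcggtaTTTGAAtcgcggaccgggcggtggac
Ncapd2 promoter: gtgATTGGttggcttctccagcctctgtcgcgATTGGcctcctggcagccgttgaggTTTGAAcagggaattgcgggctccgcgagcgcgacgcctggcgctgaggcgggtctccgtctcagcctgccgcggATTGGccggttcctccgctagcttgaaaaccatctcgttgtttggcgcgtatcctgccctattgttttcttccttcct
Spc25 promoter: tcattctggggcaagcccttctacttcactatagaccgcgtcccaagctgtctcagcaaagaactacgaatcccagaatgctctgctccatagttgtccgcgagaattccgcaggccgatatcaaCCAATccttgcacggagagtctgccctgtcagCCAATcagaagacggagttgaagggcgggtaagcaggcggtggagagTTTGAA
The CCAAT boxes of Ccnb2 start 87, 54 and 21 bases upstream, and those of Spc25 55 and 23 bases upstream.

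Over the 300 bases from 250 before to 50 after the start, the CHR core was in 24 of 29 promoters of the mitosis list (82.8%) and in 17.9% of all 32851 promoters. The CCAAT box was in 79.3% of the mitosis promoters and 37.4% of all. The NF-kB motif was in 6 of 25 promoters of the NF-kB list (24.0%) and 1.6% of all. The core of the cAMP response element was in 28.6% of the promoters of immediate early genes, in 8 of 32 of those of ribosome biogenesis genes, in 8 of 33 of those of DNA replication genes, a list whose passing members were all lower with talc, and in 7.5% of all. The E-box was in 28.1% of the promoters of ribosome biogenesis genes and 7.2% of all. Among promoters of all genes that passed lower, 21.1% held the CHR core and 46.1% the CCAAT box. Of those of all genes that passed higher, 14.6% held the core of the cAMP response element, 12.4% the E-box and 2.5% the NF-kB motif. The AP-1 motif (TGA, any base, then TCA) was in 5.0% of the latter and in 7.8% of all promoters. It was in 0 of 21 promoters of immediate early genes. These letters describe the windows and show no binding.

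In limma, 2201 of 23102 genes (9.53%) had a Benjamini-Hochberg adjusted p below 0.05 and are said to have passed, with 1539 higher with talc (6.66%) and 662 lower (2.87%). Values are log2 intensities averaged over the probe sets of a gene, and a difference is talc with estradiol minus TiO2 with estradiol in log2 units. Genes that differed by at least 2-fold numbered 65 higher and 16 lower. The split of 69.9% higher among passing genes depended on how the arrays were scaled, as set out next.

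The TiO2 with estradiol arrays were the dimmest at the bright end. Their upper quartiles were 233.5, 231.6 and 222.2 intensity units, against 243.9, 242.6 and 245.8 with talc and estradiol, and the 2 groups did not overlap. Their medians were 45.6 to 46.7, against 46.5 to 46.9. When genes were placed in 10 equal bins by their mean level over the 18 arrays, the median difference was -0.049 to -0.096 in the dimmer 6 bins and 0.091 to 0.146 in the brighter 4. Of 2310 or 2311 genes per bin, 266 to 404 passed higher and 79 to 130 lower in each of the brighter 4. In each of the dimmer 6, 5 to 91 passed higher and 24 to 53 lower. The counts of each list below stand against these shares as well as those over all genes. Against estradiol alone, a comparison that shares the TiO2 arrays, the median differences in the brighter 4 bins were -0.05 to -0.087. For talc with estradiol against estradiol alone they were 0.017 to 0.063 in the same bins. The upper quartiles of the estradiol arrays, 241.2, 237.9 and 240.4, lay between those of the 2 particle groups. Quantile normalization of the 18 arrays brought the median in every bin to between -0.018 and 0.009, and then 1738 genes passed, 887 higher and 851 lower (51.0% higher). Of these, 1378 also passed before that step, and each of the brighter 4 bins then held 158 to 187 genes higher and 133 to 230 lower. Subtracting array upper quartiles moved the median of all genes from -0.007 to -0.151 and left 768 higher and 2045 lower (27.3% higher). The number of genes on each side thus differed between scalings, and each list below is given with its counts after quantile normalization where they changed. Of 249 genes that passed and were list members or named, none changed sign under quantile normalization, cyclic loess, or subtraction of array medians or upper quartiles, and 27 no longer passed under quantile normalization.

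**Figure D1:**
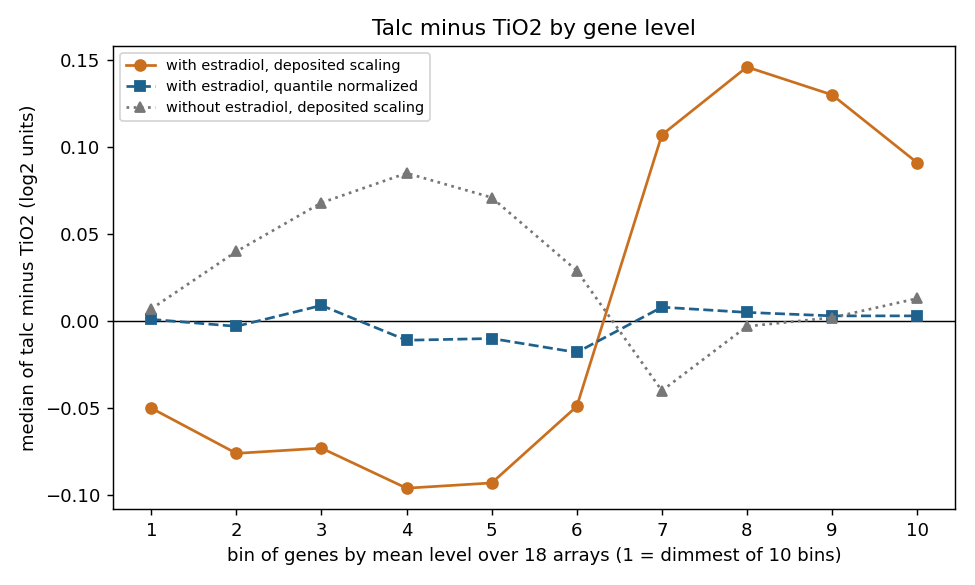
Median difference between talc and TiO2 (log2 units) in each of 10 equal bins of genes by mean level over 18 arrays, with estradiol as deposited (circles), with estradiol after quantile normalization (squares), and without estradiol (triangles). As deposited, the difference with estradiol runs from below 0 in the dimmer 6 bins to 0.146 in bin 8, and after quantile normalization it stays between -0.018 and 0.009.

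The largest rise was in Snhg15, a small nucleolar RNA host gene. Its levels were 8.70, 8.55 and 9.04 with talc and estradiol, and 6.05, 5.63 and 5.69 with TiO2 and estradiol. The difference of 2.97 ± 0.18 (SE, adjusted p = 7.52e-08) is 7.86-fold, and its 4 probe sets gave 2.53 to 3.42. Levels with estradiol alone were 6.55, 6.04 and 6.32, so the talc arrays stood above both other groups, and 1 of the TiO2 arrays overlapped the estradiol arrays while the other 2 lay below them.

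Ptgs2, the inducible cyclooxygenase that makes the precursor of prostaglandins, stood at 7.44, 7.35 and 7.39 with talc and at 5.67, 5.08 and 5.04 with TiO2. The difference was 2.13 ± 0.20 (adjusted p = 1.24e-05), and all 11 probe sets were higher with talc. Cxcl2, a chemokine that attracts neutrophils, stood at 8.03, 8.36 and 8.41 against 6.66, 6.6 and 6.57, a difference of 1.66 ± 0.13 (adjusted p = 2.42e-06). Fos, a subunit of the AP-1 transcription factor, stood at 6.35, 6.6 and 6.41 against 4.51, 4.79 and 4.27, a difference of 1.93 ± 0.15 (adjusted p = 2.42e-06). None of these 3 genes had an array of the talc group within reach of the TiO2 group. With estradiol alone Cxcl2 lay at 6.56 to 6.70 and Fos at 4.29 to 4.65, ranges that overlap those of the TiO2 arrays.

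Other genes among the 15 largest rises were Pgf, placental growth factor (2.02 ± 0.21), Clec4n, the lectin receptor dectin-2 (1.95 ± 0.20), and Osbp2, an oxysterol-binding protein (1.70 ± 0.09). Pinx1, a nucleolar protein that binds telomerase, differed by 1.68 ± 0.17 and Stmn4, a tubulin-binding stathmin, by 1.68 ± 0.16. Gadd45b, a stress-inducible NF-kB target, differed by 1.55 ± 0.14 and C3, the central complement component, by 1.43 ± 0.13. Acod1, which makes itaconate, Rrp12, a ribosome assembly factor, and Jag1, a Notch ligand, differed by 1.43 ± 0.19, 1.43 ± 0.12 and 1.42 ± 0.19. Probe sets of 1 gene did not always move alike: those of Osbp2 ran from -0.46 to 3.78 and those of Rrp12 from -0.37 to 3.20, and their brightest probe sets gave 0.315 and 0.421. Pilrb2, a paired immunoglobulin-like receptor with 3 probe sets, completed the group at 1.60 ± 0.36. Its TiO2 arrays stood at 4.87, 4.89 and 4.16 and its talc arrays at 6.05, 6.32 and 6.34. Its probe sets ran from 0.03 to 4.13 with a median of 0.64, so 1 of them carried most of the mean.

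The deepest fall among genes that passed was in Tgfbi, which encodes a secreted matrix protein. It stood at 6.21, 6.02 and 6.26 with talc and at 8.17, 8.29 and 8.25 with TiO2, a difference of -2.07 ± 0.10 (adjusted p = 8.11e-09), or 4.20-fold. All 18 probe sets were lower with talc, by between -0.43 and -3.17. With estradiol alone Tgfbi lay at 8.38 to 8.44, above all arrays of both groups given a particle with estradiol. Cdkn2c, an inhibitor of the cyclin D kinases Cdk4 and Cdk6, differed by -1.08 ± 0.11 (adjusted p = 3.66e-05), with 7.16, 7.02 and 6.97 against 8.14, 8.07 and 8.19. Map2k6, a kinase upstream of p38, differed by -1.05 ± 0.13, and St6gal1, a sialyltransferase, by -1.09 ± 0.16. Abcd2, a peroxisomal fatty acid transporter, differed by -1.13 ± 0.27, Ctla2b, a protease inhibitor-like gene, by -1.23 ± 0.25, and Lifr, the receptor of leukemia inhibitory factor, by -1.04 ± 0.14. Lifr was lower in 19 of its 22 probe sets, though its brightest probe set gave 0.177.

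The other 8 of the 15 largest falls rested on few probe sets or dim genes. Pdcd2, Olfr467, Cpt1b, Zbtb9, Olfr116 and Trgv6 have 1 probe set each, Platr10 has 3, and Nlrp4c has 7 at percentile 11.9 of level. Pdcd2, at percentile 0.667, stood at 1.38, 1.34 and 1.71 with talc and at 2.56, 1.98 and 4.28 with TiO2, so that the dimmest TiO2 array also held its highest value. None of these 8 passed in the same direction without estradiol, where their differences lay between -0.16 and 1.03. In the whole table, the 7 genes lower by at least 2-fold and measured by 5 or more probe sets included 6 that also passed lower without estradiol, while of 6 such genes with 1 probe set 0 did. Among genes with 5 or more probe sets, 54 were higher by at least 2-fold and 51 of these also passed higher without estradiol.

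**Figure D2:**
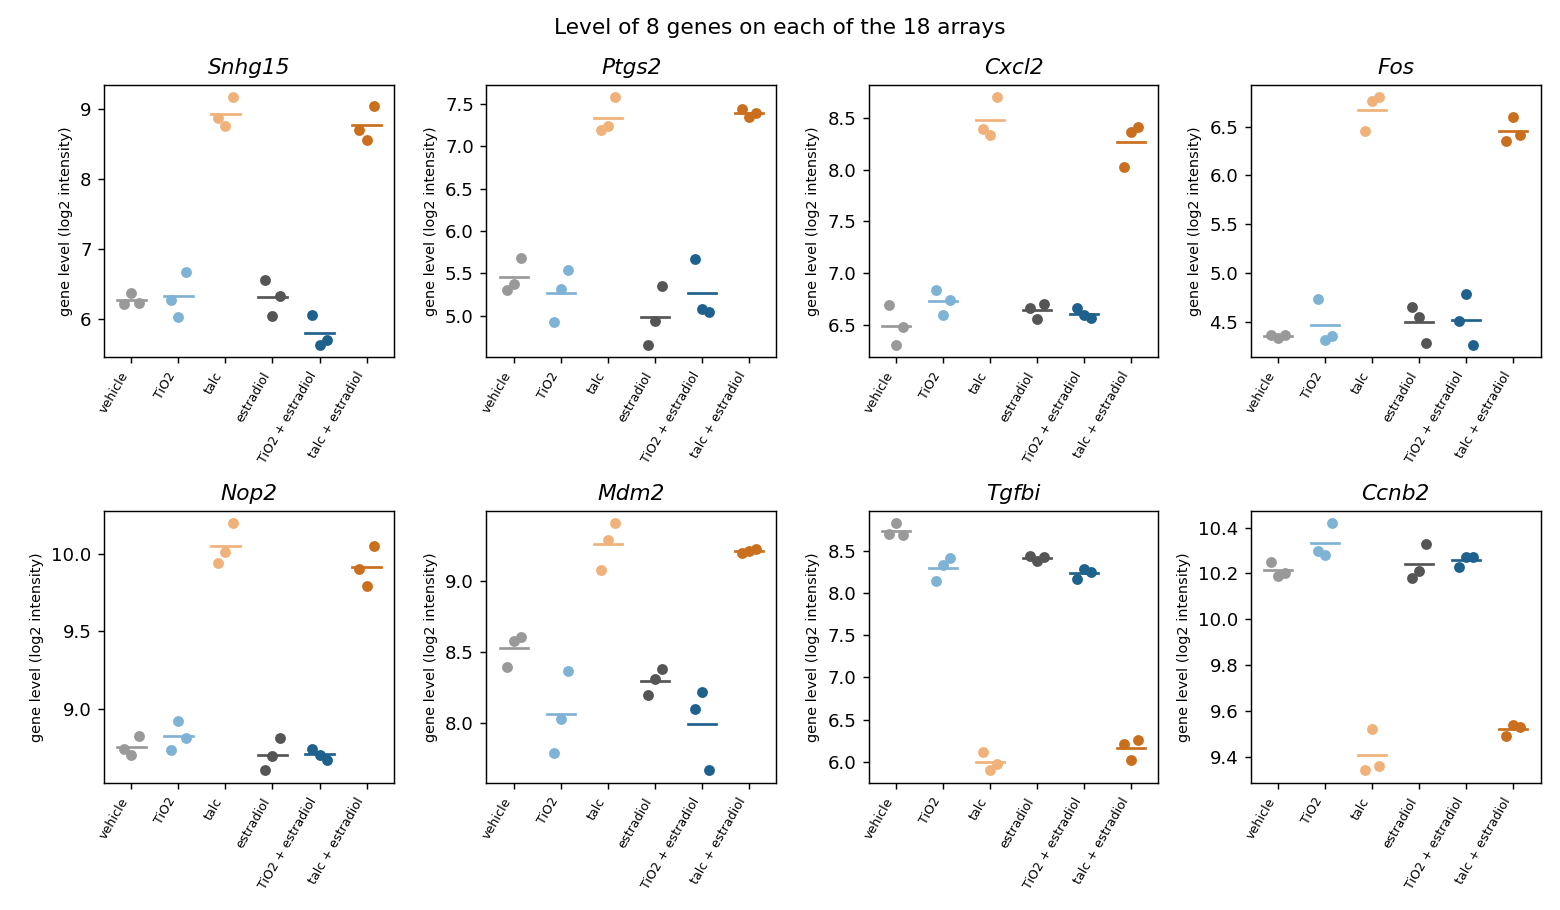
Level of 8 genes (log2 intensity) on each of the 18 arrays, 3 points per group with a bar at the group mean. Both talc groups stand apart from the other 4 groups in every panel, above them for Snhg15, Ptgs2, Cxcl2, Fos, Nop2 and Mdm2 and below them for Tgfbi and Ccnb2.

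Immediate early factors are the first transcription factors a stimulated cell makes. Of 21 measured, 9 passed higher and 0 lower, against 6.66% and 2.87% of all genes, and the list median was 0.29. The median was -0.007 over all genes and 0.085 over genes above the median level, and the level of this list stood at percentile 79.7. After quantile normalization the list had 9 higher and 0 lower. Over 5 scalings, quantile normalization included, the number higher ran from 4 to 12 and the median from 0.14 to 0.36. Beside Fos, the AP-1 subunits Junb and Fosl2 differed by 0.87 ± 0.10 and 0.94 ± 0.12. Junb stood at 8.69, 8.61 and 8.85 against 7.68, 7.84 and 8.0. Klf10, Ier5 and Atf3 differed by 0.57 ± 0.11, 0.47 ± 0.10 and 0.38 ± 0.09, and Egr1, a zinc finger factor, by 0.60 ± 0.17. Jun differed by 0.15 and Fosl1 by -0.33, and neither passed.

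The NF-kB list holds subunits of the factor and the inhibitors it induces against itself. Of 24 measured, 17 passed higher and 0 lower (14 and 0 after quantile normalization), with a median of 0.49. The inhibitors Nfkbie and Nfkbia differed by 0.87 ± 0.09 and 0.52 ± 0.10. Nfkbie stood at 8.74, 8.73 and 8.85 against 7.79, 7.94 and 7.96. The adhesion molecule Icam1 differed by 0.73 ± 0.09, the adaptor Traf1 by 0.87 ± 0.11 and the subunit Nfkb2 by 0.72 ± 0.10. The deubiquitinase Tnfaip3, another brake on the pathway, differed by 0.73 ± 0.12. The subunits Rela and Relb differed by 0.34 ± 0.10 and 0.47 ± 0.12, and both were among the genes that no longer passed after quantile normalization, while Nfkb1 differed by 0.03.

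Among chemokines 5 of 22 passed higher and 0 lower, with a median of 0.20. Beside Cxcl2 these were Ccl3 at 0.49 ± 0.10, Ccl7 at 0.79 ± 0.17, Ccl9 at 0.38 ± 0.10 and Ccl22 at 0.49 ± 0.12. The monocyte attractant Ccl2 differed by 0.97 and did not pass (adjusted p = 0.0818). Among 23 cytokines, 6 passed higher and 3 lower, with a median of -0.01. Osm, oncostatin M, stood at 7.85, 7.56 and 7.87 against 6.41, 6.43 and 6.28, a difference of 1.39 ± 0.11 (adjusted p = 3.25e-06). Il1b, interleukin-1 beta, differed by 1.07 ± 0.18, its antagonist Il1rn by 1.22 ± 0.17, Tnf by 0.78 ± 0.12, Csf1 by 1.05 ± 0.14 and Il23a by 0.59 ± 0.12. In the other direction, the B cell survival factor Tnfsf13b stood at 5.96, 6.08 and 5.86 against 7.10, 6.94 and 6.66, a difference of -0.93 ± 0.14. Il6, Il10 and Il12b differed by 0.14, -0.21 and -0.16, and none of these passed.

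Of 20 genes of the prostaglandin and leukotriene pathway, 4 passed higher and 5 lower, with a median of 0.03. The lower count was 3 or 4 whichever array of the 2 groups was left out. It was 3 without talc and estradiol replicate 2 and also without replicate 3 of that group. The higher genes were Ptgs2, the prostaglandin E synthase gene Ptges2 (0.74 ± 0.17), and the receptors for prostaglandin E2 and prostacyclin, Ptger2 (0.76 ± 0.14) and Ptgir (0.51 ± 0.11). For Ptges2 the brightest probe set went the other way. The lower genes were the constitutive cyclooxygenase Ptgs1 (-0.42 ± 0.12), the prostaglandin D synthase Hpgds (-0.59 ± 0.13), and on the leukotriene side Alox5, its activating protein Alox5ap and the leukotriene receptor Cysltr1. Alox5, the 5-lipoxygenase, stood at 8.86, 8.73 and 8.71 against 9.60, 9.54 and 9.44, a difference of -0.76 ± 0.10 (adjusted p = 0.000293) with all 20 probe sets lower. Alox5ap differed by -0.31 ± 0.08 and Cysltr1 by -0.70 ± 0.12.

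Pattern recognition receptors differed member by member. Of 21 genes of Toll-like receptors and their adaptors, 3 passed higher and 3 lower, and after quantile normalization 1 and 3. The level of this list stood at percentile 79.5, in bin 8, where 404 of 2310 genes passed higher and 94 lower. The lower ones were the flagellin receptor Tlr5 (-0.83 ± 0.12) and the endosomal RNA receptors Tlr7 (-0.77 ± 0.12) and Tlr8 (-0.69 ± 0.19). The higher ones were the adaptors Myd88 (0.47 ± 0.11) and Ticam2 (0.61 ± 0.13) and the ligase Traf6 (0.40 ± 0.11). Of 31 scavenger, lectin, Fc and complement receptors, 5 passed higher and 3 lower (5 and 4 after quantile normalization). Their median level stood at percentile 83, in bin 9, where 396 of 2310 genes passed higher and 126 lower. The C-type lectins Clec4n, Clec4d and Clec4e, receptors that signal through an Fc receptor chain, were higher by 1.95 ± 0.20, 0.94 ± 0.10 and 0.63 ± 0.09. Clec4d stood at 10.00, 10.12 and 10.09 against 9.12, 9.03 and 9.24. The scavenger receptor Msr1 differed by 0.52 ± 0.11 and the integrin Itgax by 0.69 ± 0.14. The mannose receptor Mrc1 and the Fc receptors Fcgr2b and Fcgr3 were lower, by -0.66 ± 0.14, -0.44 ± 0.09 and -0.47 ± 0.14.

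Several smaller lists held members on both sides, where 6.66% of all genes passed higher and 2.87% lower. The MAP kinase and inflammasome lists stood at level percentiles 81.1 and 85.2, in bin 9, where 396 of 2310 genes passed higher and 126 lower. The purinergic and alternative activation lists stood at 61.6, in bin 7, where 266 of 2310 passed higher and 79 lower. Of 24 MAP kinases and their phosphatases, 4 passed higher and 3 lower (4 and 4 after quantile normalization). The phosphatases Dusp1, Dusp4, Dusp5 and Dusp16 were higher by 0.78 ± 0.14, 0.57 ± 0.09, 0.85 ± 0.12 and 0.50 ± 0.10, whereas Dusp6, specific for ERK, was lower by -0.59 ± 0.09. Of 15 purinergic genes 2 passed higher and 3 lower (1 and 3 after quantile normalization). The nucleotide receptor P2ry2 differed by 0.86 ± 0.10, and the ADP receptors P2ry13 and P2ry12 by -0.96 ± 0.15 and -0.76 ± 0.19. Of 19 inflammasome genes 3 passed higher and 2 lower (2 and 4 after quantile normalization). Casp4, which mouse cells use to sense cytosolic lipopolysaccharide, differed by 0.69 ± 0.14, and Il1r2, the decoy receptor of interleukin-1, by -0.78 ± 0.12. Nlrp3 differed by 0.25 and did not pass. Of 21 genes of alternative activation and TGF-beta signaling 4 passed higher and 4 lower (3 and 4 after quantile normalization). Skil, which represses SMAD-driven transcription, stood at 7.31, 7.49 and 7.36 against 6.17, 6.14 and 6.12, a difference of 1.24 ± 0.12.

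Among 19 macrophage identity genes 1 passed on each side. The transcription factor Maf stood at 6.83, 6.96 and 6.86 against 7.82, 8.09 and 7.62, a difference of -0.96 ± 0.14 (adjusted p = 0.000367). Cebpb, a factor of inflammatory macrophages, stood at 8.09, 7.64 and 8.02 against 6.5, 6.86 and 7.31, a difference of 1.02 ± 0.20 (adjusted p = 0.00384). Its 3 probe sets ran from 0.35 to 2.24, with a median of 0.48. Of 17 genes of nitric oxide, itaconate and oxidant enzymes 6 passed higher and 1 lower (5 and 0 after quantile normalization). The oxidase subunits Cybb and Ncf1 differed by 0.59 ± 0.09 and 0.54 ± 0.11, the mitochondrial superoxide dismutase Sod2 by 0.69 ± 0.10 and the secreted one, Sod3, by -0.66 ± 0.19. The inducible nitric oxide synthase Nos2 differed by 0.31 and did not pass.

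Genes of mitosis were lower with talc than with TiO2. Of 34 measured, 23 passed lower and 0 higher, with a median of -0.56, and all 34 differences were below 0. After quantile normalization 31 passed lower. Ccnb2, cyclin B2, stood at 9.49, 9.54 and 9.53 against 10.23, 10.27 and 10.27, a difference of -0.74 ± 0.09 (adjusted p = 9.77e-05) with all 10 probe sets lower. Ncapd2, a condensin subunit, stood at 8.74, 8.77 and 8.72 against 9.42, 9.34 and 9.49, a difference of -0.67 ± 0.09. Spc25 and Ndc80, both of the kinetochore complex that holds spindle fibers, differed by -0.92 ± 0.12 and -0.82 ± 0.11. The kinases Aurkb, Bub1b and Plk1 differed by -0.82 ± 0.12, -0.63 ± 0.10 and -0.40 ± 0.08, and Cdk1, their master kinase, by -0.67 ± 0.17. With estradiol alone Ccnb2 lay at 10.18 to 10.33, a range that holds all 3 TiO2 arrays.

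Of 33 genes of DNA replication and nucleotide supply, 16 passed lower and 0 higher (21 and 0 after quantile normalization), with a median of -0.38. The number lower ran from 10 to 15 with an array left out, and was 10 without talc and estradiol replicate 1. Over 5 scalings, quantile normalization included, it ran from 13 to 27. Rrm2, the regulated subunit of ribonucleotide reductase, stood at 7.70, 7.92 and 7.89 against 8.69, 8.85 and 8.79, a difference of -0.94 ± 0.12. All of the helicase subunits Mcm2 to Mcm7 passed, at -0.35 to -0.68, with Mcm3 turning to the other side in its brightest probe set. Cyclin E2, Ccne2, differed by -0.65 ± 0.10, and Pcna, the sliding clamp, by -0.19 without passing. Of 20 genes of homologous recombination and the Fanconi pathway 10 passed lower and 0 higher (11 and 0 after quantile normalization), with a median of -0.40. Topbp1, which activates the checkpoint kinase Atr, differed by -0.69 ± 0.09, the helicase Brip1 by -0.76 ± 0.11 and Brca1 by -0.52 ± 0.11.

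Of 25 targets of p53, 10 passed higher, 1 lower and 14 did not pass (7 higher and 1 lower after quantile normalization). The median was 0.22, and 0.08 to 0.30 over 5 scalings, quantile normalization included. The number higher ran from 6 to 8 with an array left out. It was 6 without talc and estradiol replicate 3, and also 6 without TiO2 and estradiol replicate 1 or replicate 2. Mdm2, the ligase that p53 induces against itself, stood at 9.20, 9.21 and 9.23 with talc and at 8.10, 8.22 and 7.67 with TiO2, a difference of 1.22 ± 0.15 (adjusted p = 0.000173). Its 15 probe sets were all higher with talc. Plk2 and Plk3, polo-like kinases of the stress response, differed by 0.88 ± 0.09 and 0.97 ± 0.14, and the nuclease Aen by 1.0 ± 0.12. The cyclin kinase inhibitor Cdkn1a differed by 0.48 ± 0.14, which no longer passed after quantile normalization, and Bbc3 and Gadd45a by 0.08 and -0.01 without passing. Of 21 apoptosis genes 3 passed higher and 0 lower (2 and 0 after quantile normalization), and these were Cycs (0.63 ± 0.12), Fas (0.73 ± 0.19) and Bak1 (0.46 ± 0.13). The apoptosis list stood at percentile 77.1 of level, in bin 8, where 404 of 2310 genes passed higher and 94 lower. The brightest probe set of Fas gave -0.06.

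Among the lists, which were chosen with earlier results of these data known, the highest median was that of ribosome biogenesis with the small nucleolar RNA hosts. Of 35 measured, 24 passed higher and 0 lower (22 and 0 after quantile normalization), with a median of 0.61. Nop2, an rRNA methyltransferase, stood at 9.90, 9.79 and 10.05 against 8.74, 8.70 and 8.67, a difference of 1.21 ± 0.10 (adjusted p = 4.4e-06), with all 16 probe sets higher. Utp4 and Utp20, of the small subunit processome, differed by 0.85 ± 0.10 and 0.82 ± 0.10, and Bysl, an assembly factor of the small subunit, by 1.06 ± 0.13. Polr1b and Polr1a, the large subunits of RNA polymerase I, differed by 1.12 ± 0.14 and 0.60 ± 0.10. The box C/D protein Nop58 and its partner Nop56 differed by 0.94 ± 0.14 and 0.61 ± 0.12. The host genes differed among themselves: Snhg12 and Snhg1 by 1.10 ± 0.16 and 0.91 ± 0.15, whereas Snhg3, Snhg5, Snhg6 and Snhg8 lay between -0.23 and 0.18, and Gas5 at 0.29, none of them passing. The abundant nucleolar proteins Npm1, Ncl and Fbl differed by -0.14, 0.26 and 0.16 and did not pass.

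**Figure D3:**
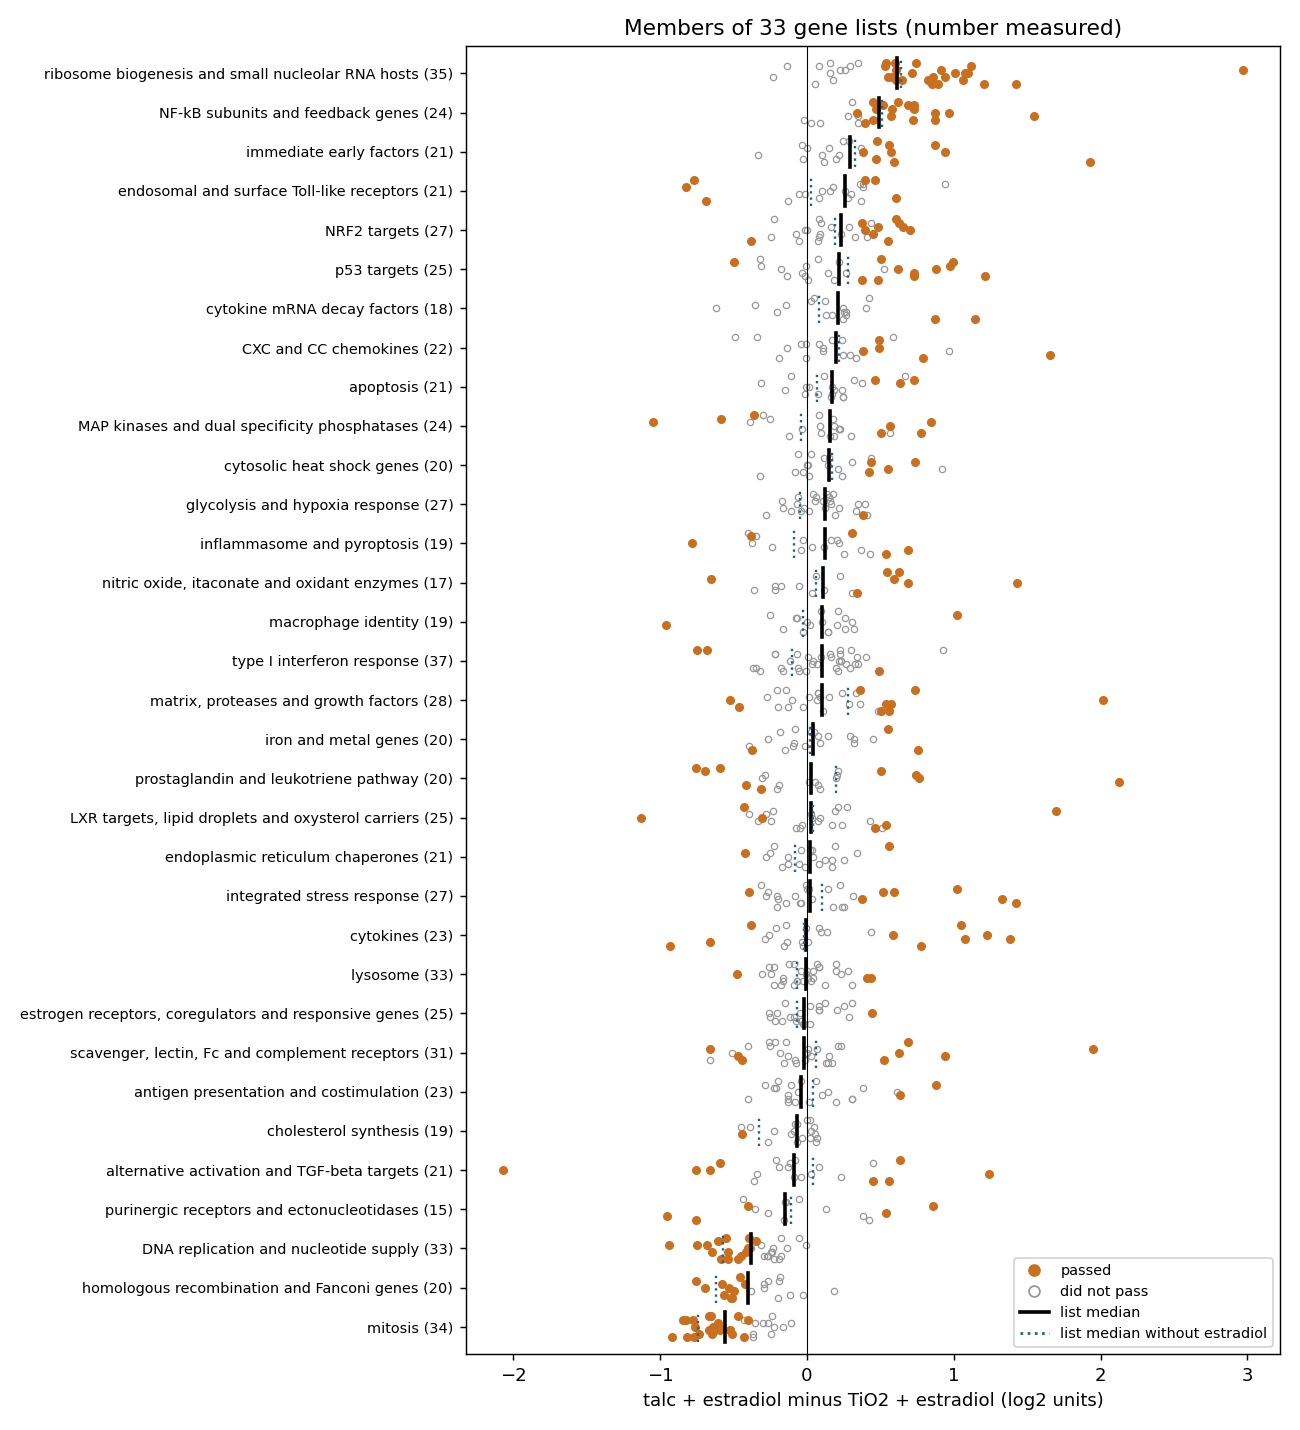
Difference between talc with estradiol and TiO2 with estradiol (log2 units) for each measured member of 33 gene lists, filled where the gene passed, with the list median (solid bar) and the same median without estradiol (dotted bar). The mitosis, recombination and replication lists lie below 0 with medians of -0.56, -0.40 and -0.38, and the ribosome biogenesis and NF-kB lists above 0 with medians of 0.61 and 0.49.

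Stress pathways were represented by a part of their members, beside 6.66% of all genes higher and 2.87% lower. Of 27 genes of the integrated stress response 6 passed higher and 1 lower (5 and 2 after quantile normalization). Ddit3, the factor CHOP, stood at 8.24, 8.42 and 8.40 against 6.82, 6.78 and 7.20, a difference of 1.42 ± 0.12 (adjusted p = 3.45e-06), and Ppp1r15a, the phosphatase subunit that ends the response, differed by 1.33 ± 0.11. The amino acid enzymes Asns, Psat1 and Phgdh differed by 0.02, -0.31 and -0.20 and did not pass. Of 21 endoplasmic reticulum chaperones 1 passed on each side (1 higher and 2 lower after quantile normalization), Hyou1 at 0.56 ± 0.13 and Herpud1 at -0.42 ± 0.09. Of 20 cytosolic heat shock genes 4 passed higher and 0 lower (2 and 0 after quantile normalization), led by Hsph1 at 0.73 ± 0.13. Their median level stood at percentile 79.2, in bin 8, where 404 of 2310 genes passed higher. The number higher was 2 without talc and estradiol replicate 2 and also without TiO2 and estradiol replicate 3. Of 27 NRF2 targets 9 passed higher and 1 lower (6 and 1 after quantile normalization). The autophagy receptor Sqstm1 differed by 0.65 ± 0.08, the thioredoxin reductase Txnrd1 by 0.61 ± 0.09, the glutathione conjugate pump Abcc1 by 0.70 ± 0.10 and heme oxygenase, Hmox1, by 0.55 ± 0.11. Nqo1 and Slc7a11 differed by 0.08 and 0.00 without passing.

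Of 28 genes of matrix, proteases and growth factors 7 passed higher and 2 lower (7 and 1 after quantile normalization). Over all genes 6.66% passed higher and 2.87% lower. The level of this list stood at percentile 53.6, in bin 6, where 91 of 2310 genes passed higher and 53 lower. Beside Pgf, the growth factor Pdgfb differed by 0.74 ± 0.10 and osteopontin, Spp1, by 0.56 ± 0.11. The gelatinase Mmp9 differed by 0.54 ± 0.10. The urokinase system divided, with the receptor Plaur at 0.57 ± 0.11 and the protease Plau at -0.46 ± 0.08. Of 25 genes of LXR targets and lipid handling 3 passed on each side. This list stood at percentile 72.3 of level, in bin 8, where 404 of 2310 genes passed higher and 94 lower. The cholesterol exporters Abcg1 and Abca1 differed by 0.54 ± 0.10 and 0.47 ± 0.10. Of 18 cytokine mRNA decay factors 2 passed higher and 0 lower, the tristetraprolin gene Zfp36 at 1.15 ± 0.20 and Zc3h12c at 0.87 ± 0.13. The decay list stood at percentile 88.6, in bin 9, where 396 of 2310 genes passed higher and 126 lower.

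In the remaining lists few members passed, against 6.66% of all genes higher and 2.87% lower. Of 37 interferon response genes 1 passed higher and 2 lower, Slfn2 at 0.49 ± 0.12, Epsti1 at -0.75 ± 0.13 and Ifit2 at -0.68 ± 0.18. Of 33 lysosome genes 2 passed higher and 1 lower, and after quantile normalization 0 and 4. Of 19 cholesterol synthesis genes 1 passed, Insig1 at -0.45 ± 0.10, and 3 passed lower after quantile normalization. Of 27 genes of glycolysis and hypoxia 1 passed, the glucose transporter Slc2a1 at 0.38 ± 0.09. Of 23 genes of antigen presentation 2 passed higher (1 after quantile normalization), the checkpoint ligand Cd274 at 0.88 ± 0.17 and Cd40 at 0.64 ± 0.15. Of 20 iron and metal genes 2 passed higher and 1 lower (2 and 3 after quantile normalization), with the transferrin receptor Tfrc at 0.75 ± 0.14. Of 25 estrogen receptors, coregulators and responsive genes 1 passed higher, the coactivator Ncoa1 at 0.45 ± 0.12, which did not pass after quantile normalization. The receptors Esr1, Esr2 and Gper1 differed by 0.02, -0.22 and 0.29 and did not pass.

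Both particle groups can be set beside cells given estradiol alone, in comparisons that share arrays with the main one. The 1539 genes higher with talc had a median of 0.42 against estradiol in the talc group and of -0.12 in the TiO2 group. The 662 lower genes had medians of -0.49 and 0.02. Over all genes 1647 passed for talc with estradiol against estradiol (7.13%), 953 higher (4.13%) and 694 lower, and 1 for TiO2 with estradiol against estradiol (0.00433%), where 2059 had an unadjusted p under 0.05. That gene was the unnamed transcript D630033O11Rik, at 0.85 ± 0.12 (adjusted p = 0.0389) with 3 probe sets. The mitosis list had a median of -0.66 against estradiol in the talc group and of -0.14 in the TiO2 group, and the ribosome list of 0.61 and -0.07.

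The same particles without estradiol, on 6 other arrays, gave 2301 passing genes (9.96%), 1064 higher with talc (4.61%) and 1237 lower (5.35%). Genes that passed higher in both arms numbered 670, 43.5% of those with estradiol and 63% of those without. Genes that passed lower in both numbered 393, 59.4% of those with estradiol and 31.8% of those without, and 9 passed in opposite directions. Across the 23102 genes, which are not independent replicates, the 2 differences correlated at Pearson r = 0.372 and Spearman rho = 0.247. The median difference of the 1539 higher genes was 0.53 with estradiol and 0.34 without, and that of the 662 lower genes -0.54 and -0.51. These genes were chosen by passing with estradiol, which favors larger differences in that arm, so these medians do not compare the size of the arms.

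**Figure D4:**
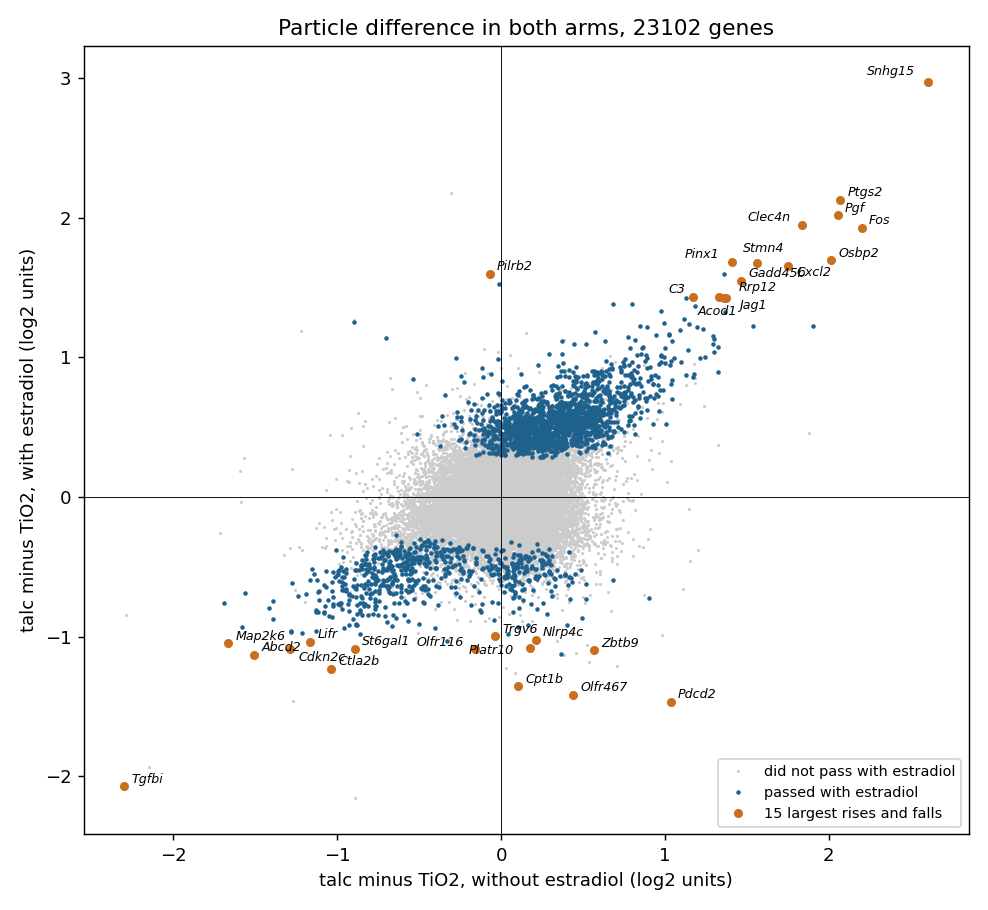
Difference between talc and TiO2 without estradiol (horizontal axis) and with estradiol (vertical axis), in log2 units, for 23102 genes, with the 15 largest rises and 15 largest falls labelled. All of the labelled rises except Pilrb2 lie at 1.17 or above on the horizontal axis, while 7 of the labelled falls lie to the left and the other 8 lie at -0.16 or above.

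The leading genes had similar values in both arms. Snhg15 differed by 2.61 without estradiol, Ptgs2 by 2.07, Cxcl2 by 1.75, Fos by 2.20 and Tgfbi by -2.30. The difference of differences, with estradiol minus without, had a 95% interval of -0.17 to 0.90 for Snhg15, -0.54 to 0.65 for Ptgs2, -0.48 to 0.30 for Cxcl2 and -0.08 to 0.53 for Tgfbi. The mitosis list had a median of -0.74 without estradiol with 32 of 34 lower, the replication list -0.57 with 24 of 33, and the ribosome list 0.64 with 23 of 35 higher. For mitosis the arms differed by a list median of 0.19. The bright genes to which this list belongs also carried the shift by level described above, whose part in it was not tested.

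The interaction test asked whether the particle difference depended on estradiol. In limma 0 of 23102 genes passed (0%), and 3206 had an unadjusted p under 0.05. Among the 7 genes that share the smallest adjusted p, 0.0987, the 3 with the smallest unadjusted p were Pirt, Cfap58 and D630033O11Rik. Pirt, a regulator of sensory ion channels, differed by -0.72 with estradiol and 0.90 without, Cfap58, a cilia and flagella protein, by -0.35 and 0.58, and D630033O11Rik by -0.57 and 0.41. Another of the 7 was Cdc25c, of the mitosis list, at -0.109 with estradiol and -0.982 without. Its interaction adjusted p was 0.038 when only genes above the median level were tested. The unadjusted p was under 0.05 for 10 of 34 mitosis, 9 of 33 replication and 6 of 20 recombination genes. The same held for 1 of 35 ribosome, 1 of 24 NF-kB and 0 of 21 immediate early genes. The part of the shift by level in these counts was not tested. The next genes, Osm, Il1rn, Abcc1 and Ncf1, are list members given by value and were not chosen by smallest p. Their intervals are not adjusted for the number of genes. Osm differed by 1.39 with estradiol and 0.80 without, with an interval of 0.25 to 0.92 for the change and an adjusted p of 0.159. Il1rn differed by 1.22 and 1.91, with an interval of -1.20 to -0.17 and an adjusted p of 0.243. Abcc1 differed by 0.70 and 0.19 and Ncf1 by 0.54 and 0.04, and their interaction p-values were 0.159 and 0.186 after adjustment.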

How the data were processed

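RNA of J774 cells was measured on 18 Affymetrix arrays, 3 per group. Per the submitters' processing notes the authors used RMA, with version, summary level and genome build not given in the sources used here. The deposited values are linear intensity values per probe set (1.458 to 17256), and log2 was taken before any other step. The value of a gene is the log2 intensity averaged over those of its probe sets that name 1 symbol (233753 probe sets, 23102 genes). Another 5106 probe sets had several symbols and 30892 none, and 2247 symbols were updated through RefSeq. Averaging can hide changes in exon use. Another 0 columns belonged to other samples.

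limma 3.58.1 in R 4.3.3 fitted a mean per group to all 18 arrays (lmFit, eBayes), with 12 residual and 4.57 prior degrees of freedom, two-sided, with Benjamini-Hochberg adjustment over all genes. The median SE was 0.151 log2 units, or 0.213 for the interaction, and the number of arrays limits the precision. The fit was tested on simulated data. The 38 gene lists (882 members, 843 measured) and the comparison were chosen with earlier results of these data known. Named were the 15 largest rises and falls among genes that passed and had separate arrays in both groups (predicted and small RNA genes left out, 99 of 2185), up to 4 passing members per list with the smallest p, and 3 genes of the interaction, and other list members are given by value. Promoters are from RefSeq, build GRCm38.p6, which held 17713 of the genes. Alternatives were other gene summaries, scalings, an offset, a filter, variance models, fewer arrays, and each array left out.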

Additional observations from a re-analysis of the deposited data

Results flagged for a closer look

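Over all 23102 genes, 298 (1.29%) had every talc array on one side of every TiO2 array with estradiol and on the opposite side without estradiol, and 2419 (10.5%) had them on the same side in both arms. The 11 genes given here are those of the 298 that passed in both arms, were named, or were list members that passed with estradiol, so they are a selection and not a count of such genes. The interaction was tested for each, and none passed (adjusted p from 0.0987 to 0.146). The talc arrays lay below the TiO2 arrays with estradiol and above them without it for Pdcd2 (-1.465 and 1.035 log2 units), Pirt (-0.725 and 0.904), C87198 (-0.595 and 0.682), Ttc34 (-0.578 and 0.427), D630033O11Rik (-0.57 and 0.415), Cdkn2b, a cyclin D kinase inhibitor (-0.554 and 0.391), 6030407O03Rik (-0.523 and 0.487), Fcamr (-0.392 and 0.412) and Cfap58 (-0.354 and 0.583). The order was the other way for Sertad3 (0.453 and -0.511) and Acadvl, a mitochondrial fatty acid dehydrogenase (0.363 and -0.37). All of these except Pdcd2 and Cfap58 passed in both arms, Pdcd2 passed with estradiol only and Cfap58 without estradiol only.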

How the results depend on the processing

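No paired analysis was possible because the labels pair no arrays across groups. With estradiol 2201 genes passed, and this became 1248 with the brightest probe set per gene, 1183 with the median of probe sets, 4010 with each probe set tested on its own, 3781 with 32 intensity units added before log2 and 812 when the fit held only the arrays compared. Leaving out each array gave 1221 to 1738, lowest without talc and estradiol replicate 3 and 1457 without replicate 1 of that group. Without estradiol the same alternatives gave 1480, 1278, 4407, 3814 and 1011 in place of 2301, and 1353 to 1855 with an array left out. For the interaction 8 genes passed among those above the median level, 15 after subtraction of upper quartiles, 75 with 32 units added, and 0 to 2 with an array left out. The 2 genes that passed without TiO2 replicate 2 were H2af-ps2 and Wnt9b, and Olfr467 passed without talc and estradiol replicate 2 and without talc replicate 2.

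The share higher among passing genes was 69.9%, and it was 51.0% after quantile normalization, 51.9% after cyclic loess, 58.3% after quantile normalization of probe sets, 84.1% with array medians subtracted, 27.3% with upper quartiles subtracted, 29.3% when the dimmest TiO2 array was also left out, and 38.8% with the brightest probe set. The loess, the probe set quantile and the last array alternative were chosen after seeing the data. Of 130 named differences, 120 stayed on their side of the threshold after quantile normalization and 10 no longer passed. With the brightest probe set 84 stayed, 43 no longer passed and 3 changed sign, Lifr to 0.177, Fas to -0.062 and D630033O11Rik to 0.019. Those that no longer passed numbered 32 when the fit held only the arrays compared, 27 with the median of probe sets, and 11 to 15 with an array left out. The cause of these movements was not tested.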
